A study of Homo sapiens with 16 samples.

Results

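The genes described are 9 members of the tight junction: the claudin genes CLDN1, CLDN3, CLDN4, CLDN7 and CLDN12, the occludin gene OCLN, the scaffold genes TJP1 and TJP3, and F11R. They were taken by symbol from the 28502 symbols listed for each RNA library, and all 9 were found. The set was chosen by the FPKM values of CLDN3 and CLDN4, which were lower in the libraries labelled siEZH1, so every siEZH1 value below is a description without a test. HCT116, an established human colorectal carcinoma line, had been transfected with a control labelled NC, with a small interfering RNA against EZH1 (siEZH1) or with one against UXT (siUXT), and each transfection was paired with phosphate-buffered saline (PBS) or tumour necrosis factor (TNF). EZH1 is a histone H3 lysine 27 methyltransferase and UXT a small prefoldin-like protein. The 6 conditions have 1 poly(A) RNA library each, and another 10 chromatin samples were not analysed here. The meaning of NC and the TNF dose and duration were not stated in the labels. Every condition shares the cell line and a transfection step, and no label says whether a PBS and a TNF library came from separate transfections.

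Tight junctions seal the space between neighbouring epithelial cells near their apical side. Claudins are membrane-spanning proteins whose extracellular loops pair across cells and set which ions may pass, so that some claudins tighten the seal and others form pores. Occludin and the junctional adhesion molecules are further membrane components, and the zonula occludens (ZO) scaffold proteins tie them to the actin cytoskeleton. In the intestine this barrier keeps gut contents out of the tissue, and TNF is known for loosening it.

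CLDN3 and CLDN4, which encode receptors of Clostridium perfringens enterotoxin, follow each other on chromosome 7 with 0 protein-coding genes between them in RefSeq, and their promoters are shown because these 2 members differed most in siEZH1. The second RefSeq promoter of CLDN7, on chromosome 17, is shown beside them as a claudin gene with a smaller siEZH1 difference. Each sequence holds the 250 bases before the annotated start (RefSeq, GRCh38.p14), 5′ to 3′ on the gene's strand: CLDN3 at chr7:73770271-73770520 on the minus strand, CLDN4 at chr7:73830746-73830995 on the plus strand and CLDN7 at chr17:7262479-7262728 on the minus strand. Capitals mark matches, on either strand, to the GC box (GGGCGG), to the AP-1 motif (TGANTCA) and to the E-box (CANNTG).
CLDN3: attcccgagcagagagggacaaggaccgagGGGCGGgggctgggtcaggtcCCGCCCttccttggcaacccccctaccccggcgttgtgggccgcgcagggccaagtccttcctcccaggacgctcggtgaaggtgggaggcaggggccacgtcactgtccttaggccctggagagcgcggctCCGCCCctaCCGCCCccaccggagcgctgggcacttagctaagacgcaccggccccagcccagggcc
CLDN4: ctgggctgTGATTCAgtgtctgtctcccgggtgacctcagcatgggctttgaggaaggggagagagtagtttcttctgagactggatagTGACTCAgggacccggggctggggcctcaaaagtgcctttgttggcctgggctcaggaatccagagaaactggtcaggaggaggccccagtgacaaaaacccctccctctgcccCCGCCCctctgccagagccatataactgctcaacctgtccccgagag
CLDN7: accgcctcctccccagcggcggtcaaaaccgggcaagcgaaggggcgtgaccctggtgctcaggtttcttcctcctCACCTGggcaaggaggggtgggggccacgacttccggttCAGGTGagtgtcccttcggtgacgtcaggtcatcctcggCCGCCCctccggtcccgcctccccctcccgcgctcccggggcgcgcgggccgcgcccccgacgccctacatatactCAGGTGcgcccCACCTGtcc

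The CLDN3 window held 4 GC box matches and 71.6% G and C bases with 19 CpG pairs, and no match to the AP-1 motif or the E-box. The CLDN4 window held 1 GC box match, 2 AP-1 matches, 58.8% G and C bases and 4 CpG pairs. The 2 windows thus differed in base composition although the genes are neighbours. The CLDN7 window shown held 4 E-box matches and 1 GC box match. The first CLDN7 window, not shown, held 1 E-box match and 0 GC box matches. Of all 35116 promoter windows of this length, 42.6% held a GC box, 61.8% an E-box and 6.57% an AP-1 match; 2 or more AP-1 matches were in 0.402%, 4 or more GC boxes in 7.63% and 4 or more E-boxes in 3.35%. No other member's window held an AP-1 match, and no window of any member held a match to the TATA box (TATAAA, in 10.7% of all windows), the GRHL motif (AACCGGTT, 0.117%) or the NF-kB motif (5.21%). In all, 8 members had 14 windows in the table, and F11R had none. These matches describe letters in a window and do not show binding.

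Some limits of the values bear on single members. CLDN12 had the same FPKM as GTPBP10 in every library and F11R the same as TSTD1, each pair being reported as 1 locus, so these values cannot be assigned to the claudin or to F11R alone. CLDN4 shared its values with hCPE-R, an older name of the same gene. CLDN1 was close to absent: it lay at 0.216 FPKM in NC PBS, 0.0501 in NC TNF, 0.0353 in siEZH1 PBS, 0.10 in siEZH1 TNF, 0.0380 in siUXT PBS and 0.113 in siUXT TNF. Scaled by relative library depth, these were whole multiples of 1 step to within 0.264%, at 6, 1, 1, 2, 1 and 3 steps. If the step is 1 sequenced fragment, no comparison of CLDN1 between conditions can be made at this depth, and it was the 1 member below the mean of 1 FPKM needed for testing.

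FPKM (fragments per kilobase of transcript, scaled to a fixed number of mapped fragments) corrects for transcript length, so levels can be set side by side between genes. Averaged over the 6 libraries, the F11R locus was the highest at 139 FPKM, followed by CLDN7 at 107 and CLDN4 at 105. The CLDN12 locus at 18.7, TJP3 at 14.2, TJP1 at 13.7, CLDN3 at 7.92 and OCLN at 4.90 came next, with CLDN1 last at 0.0920. CLDN4, CLDN7 and the F11R locus overlapped in their ranges over the libraries, and so did TJP1, TJP3 and the CLDN12 locus, and CLDN3 with TJP3, TJP1 and OCLN. CLDN3 ranked above OCLN in 4 libraries and below it in both siEZH1 libraries. CLDN3 varied most among the 8 tested members, with a highest value 3.32 times the lowest, then CLDN4 at 2.66 times, while the F11R locus varied least at 1.32 times.

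**Figure D1:**
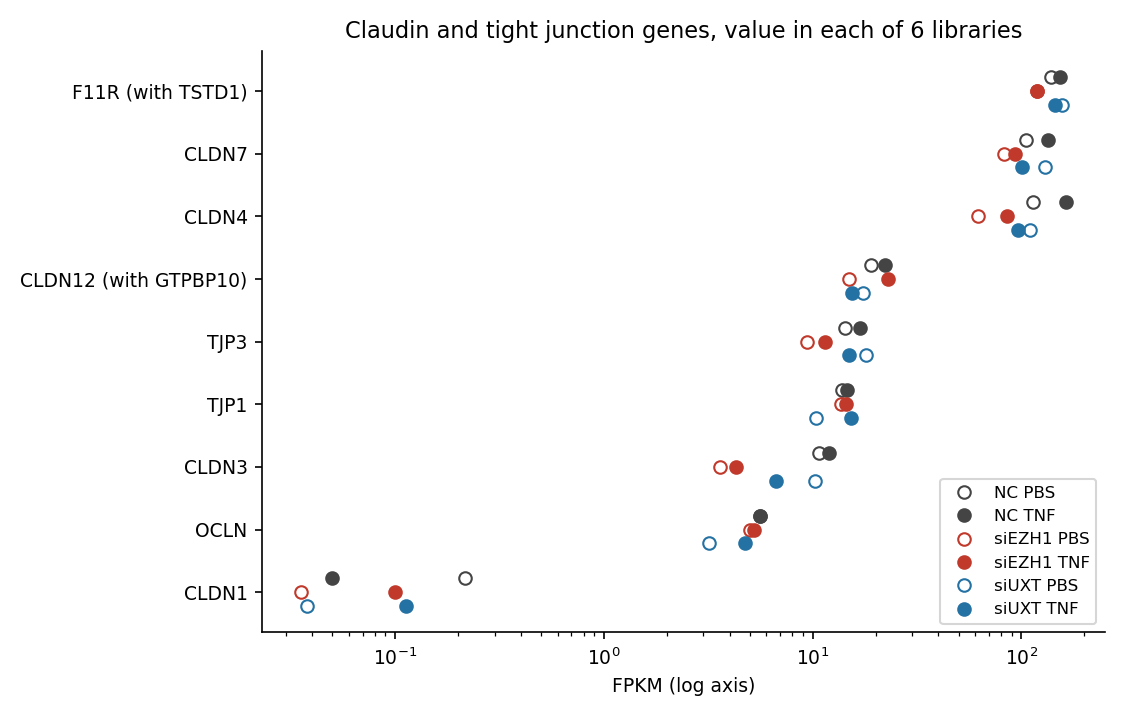
FPKM (log axis) of the 9 members in each of the 6 libraries; open points are PBS, filled points TNF, and colour gives the transfection. The siEZH1 points of CLDN3 (3.59 and 4.28 FPKM) and CLDN4 (61.8 and 84.9 FPKM) lie left of all other points of the same gene, and CLDN1 lies below 0.3 FPKM throughout.

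The libraries carried epithelial transcripts. EPCAM, KRT8, KRT18, CDH1 and the KRT19 locus, which shares its values with JUP, made up nearly all of an 8-marker epithelial sum of 1679 to 2459 FPKM, but the intestinal differentiation markers CDH17, VIL1 and LGALS4 were below 0.2 FPKM. Of 5 leukocyte and 5 endothelial markers 0 reached a mean of 1 FPKM, and of 6 fibroblast markers only COL1A1 did, at up to 8.26 FPKM. UXT was at 27.7 and 24.6 FPKM in the siUXT libraries against 62.2 and 59.6 in NC. EZH1 was at 4.05 and 4.14 FPKM in siEZH1 against 5.45 and 5.12 in NC, a small difference that bears on every siEZH1 comparison. The siUXT PBS library stood apart: compared with NC PBS, 16.4% of the 11845 tested loci were lower there by 1.5-fold or more, against 3.06% for siUXT TNF and NC TNF. Relative to NC PBS, depth was 0.719 in NC TNF, 0.720 in siEZH1 TNF and between 0.949 and 1.02 in the others.

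The siEZH1 libraries had the lowest CLDN3 and CLDN4 values of the series. CLDN3 was at 10.8 FPKM in NC PBS, 11.9 in NC TNF, 3.59 in siEZH1 PBS, 4.28 in siEZH1 TNF, 10.3 in siUXT PBS and 6.70 in siUXT TNF. Both siEZH1 values lay below all 4 others, at 0.334 and 0.359 of the matched NC library, and the log2(FPKM + 1) differences were -1.36 under PBS and -1.29 under TNF. CLDN4 was at 114, 164, 61.8, 84.9, 110 and 96.4 FPKM in the same order of libraries. Again both siEZH1 values were the lowest, at 0.543 and 0.517 of NC, with differences of -0.87 and -0.94.

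CLDN7 and TJP3 were also lowest in siEZH1, by less. CLDN7, a claudin found along the lateral membrane of intestinal cells, was at 105 FPKM in NC PBS, 134 in NC TNF, 82.3 in siEZH1 PBS, 93.0 in siEZH1 TNF, 130 in siUXT PBS and 100 in siUXT TNF. Its siEZH1 differences were -0.35 and -0.52 on the log2(FPKM + 1) scale. TJP3, the gene of the scaffold ZO-3, was at 14.2, 16.8, 9.37, 11.5, 18.1 and 15.0 FPKM in that order, with differences of -0.56 and -0.51. For both genes the siEZH1 values did not overlap the NC or siUXT values. The F11R locus, whose F11R part encodes the junctional adhesion molecule JAM-A, was at 119 FPKM in both siEZH1 libraries against 139 and 153 in NC, differences of -0.22 and -0.37.

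The remaining members differed less, or not under both treatments. TJP1, the gene of the central scaffold ZO-1, was at 13.9, 14.7, 13.6, 14.4, 10.4 and 15.3 FPKM in the same order, a difference of -0.02 in each siEZH1 pair. OCLN was at 5.6 FPKM in both NC libraries, 5.03 and 5.23 in siEZH1, and 3.19 and 4.75 in siUXT PBS and TNF, with siEZH1 differences of -0.13 and -0.08. The CLDN12 locus was at 19.1, 22.2, 15.0, 22.8, 17.5 and 15.4 FPKM, and its siEZH1 difference was -0.33 under PBS but 0.04 under TNF. The 2 scaffold genes therefore stood differently to NC: TJP3 was at 0.657 and 0.684 of its NC values and TJP1 at 0.982 in both pairs.

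All fold limits here and below are on the log2(FPKM + 1) scale. Counted over the 8 tested members, CLDN3 and CLDN4, or 2, were at least 1.5-fold lower in siEZH1 than in NC under both treatments, and 0 were at least 1.5-fold higher; over all tested loci these shares were 2.38% and 0.464%. Lower by any amount under both treatments were 7 of 8 members (37.7% of all loci), and 0 were higher under both (40.7%). In 6 members both siEZH1 libraries lay below both NC libraries (28.4%), and in 5, CLDN3, CLDN4, CLDN7, TJP3 and the F11R locus, below all 4 other libraries (19.9%). The next member outside the 1.5-fold limit was TJP3. The members' median log2 difference was -0.34 under PBS and -0.44 under TNF, against 0.00 and 0.02 over all tested loci. Since the set was chosen for this contrast, nothing is read from these counts. In bulk RNA, fewer cells of a type and less RNA per cell cannot be told apart.

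**Figure D2:**
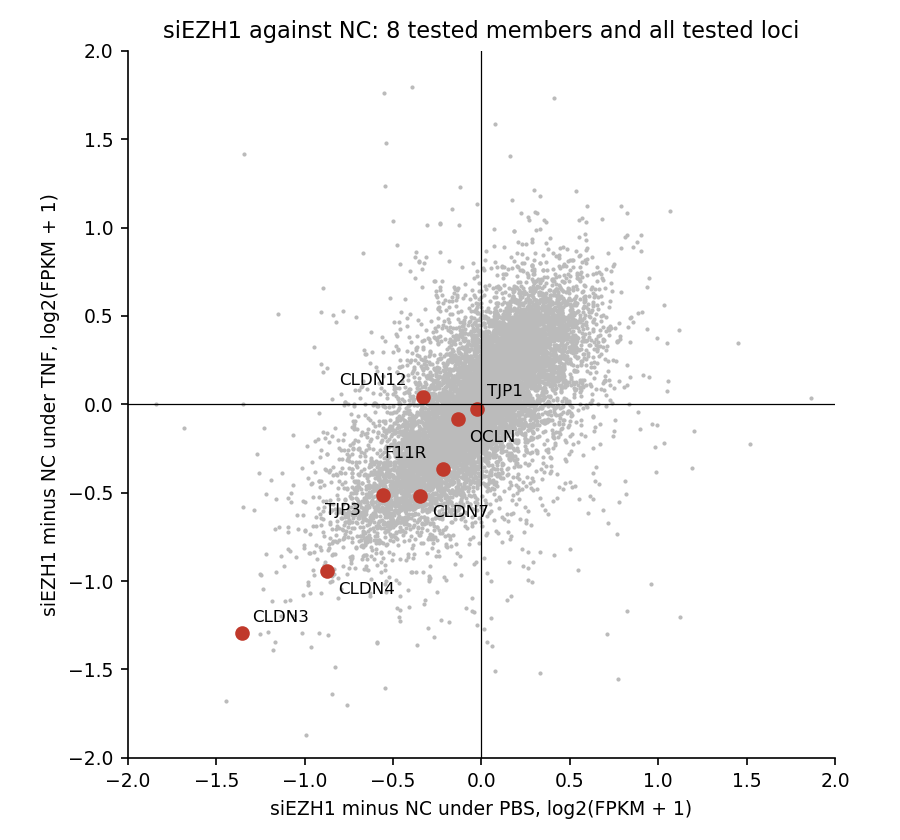
Difference of log2(FPKM + 1) between siEZH1 and NC under PBS (x axis) and under TNF (y axis) for the 8 tested members (red) and all 11845 tested loci (grey); 49 loci lie outside the axes. CLDN3 (-1.36, -1.29) and CLDN4 (-0.87, -0.94) are at the lower left, and TJP1 (-0.02, -0.02) is near the origin.

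Genes next to CLDN3 and CLDN4 were examined as well, a choice made after the members' values were seen. On the CLDN4 side, WBSCR27 (METTL27 in RefSeq) had 8.24 and 8.30 FPKM in the PBS and TNF libraries of NC but 3.38 and 5.33 in those of siEZH1, log2 differences of -1.08 and -0.56. WBSCR28 (TMEM270), the next gene, was at 0.162 against 1.20 FPKM and 0.945 against 1.64, but with a mean of 0.981 FPKM it was too low to be tested. On the CLDN3 side the siEZH1 differences under PBS were smaller than that of WBSCR27. ABHD11, the nearest, had -0.36 and -0.31, STX1A, a syntaxin gene, -0.19 and -0.55, and WBSCR22 (BUD23) -0.13 and -0.29. Under TNF, STX1A was thus close to WBSCR27. Every tested neighbour was lower in siEZH1 under both treatments, as were 37.7% of all loci. ELN, the elastin gene, did not exceed 0.196 FPKM in any library.

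**Figure D3:**
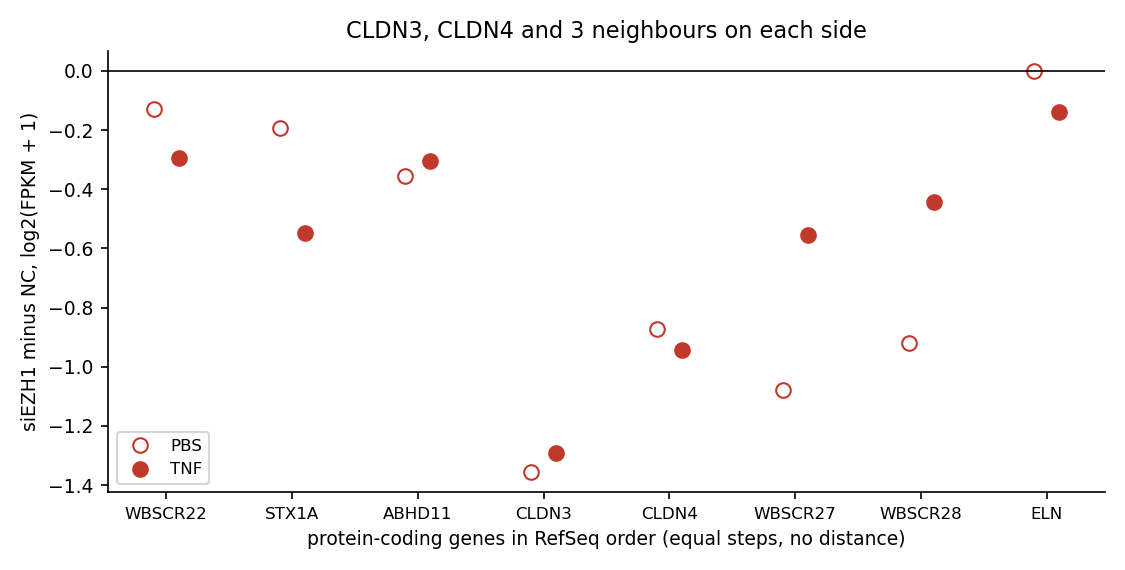
Difference of log2(FPKM + 1) between siEZH1 and NC under PBS (open) and TNF (filled) for CLDN3, CLDN4 and the 3 nearest protein-coding genes on each side, in RefSeq order with equal steps. CLDN3 is lowest (-1.36 and -1.29), CLDN4 and WBSCR27 lie between -0.56 and -1.08, and the 3 genes on the CLDN3 side lie above -0.6.

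The siEZH1 difference also moved with base composition across the table. Of 11010 tested protein-coding loci, 9160 (83.2%) had a promoter window, and these were ordered by its GC content into 5 groups of 1733 to 1901 loci. From the lowest to the highest group the median siEZH1 difference went from 0.08 to -0.06 under PBS and from 0.14 to -0.05 under TNF, and the share at least 1.5-fold lower under both treatments from 1.07% to 3.51%. Across these loci, which share the same 4 libraries, the Spearman correlation with promoter GC was -0.157 under PBS and -0.153 under TNF. For siUXT, which was compared with the same NC libraries, it was 0.0996 and -0.141. A gene with more than 1 window was placed by the mean of its windows. CLDN3 (71.6%) and OCLN (69.8%) were in group 4, and CLDN7 and TJP3 in group 3. CLDN4 (58.8%) and TJP1 (59.2%) were in group 2 and CLDN12 in group 1. TJP1 has 4 windows, at 66.8%, 70.4%, 64.8% and 34.8%, so its mean stands for none of them. Under PBS the siEZH1 differences were -1.36 for CLDN3 and -0.13 for OCLN, and -0.87 for CLDN4 and -0.02 for TJP1. The part of base composition in the CLDN3 and CLDN4 values was not tested.

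Loci with the most similar profile were found by the distance between centred log2(FPKM + 1) values over the 6 libraries, which all carry the contrast that chose CLDN3 and CLDN4. The 5 protein-coding loci nearest to CLDN3 were MIB2, a ubiquitin ligase, UQCR10, a respiratory chain subunit, RTN4RL2, CHPF, a chondroitin synthesis enzyme, and IGFBP6, an insulin-like growth factor binding protein, at distances of 0.258 to 0.433. The nearest to CLDN4 were EMC10, a subunit of the endoplasmic reticulum membrane complex, C9orf16, HS3ST1, a heparan sulfate sulfotransferase, AGTRAP and MIF, a cytokine gene, at 0.153 to 0.191. CLDN3 and CLDN4 were 0.642 apart from each other. Set among 11002 protein-coding loci outside the members, CLDN4 ranked 69 in distance from CLDN3, and CLDN3 ranked 926 from CLDN4. Other loci thus lay closer to each gene than the other of the pair did. UQCR10, for example, was at 253, 316, 111, 120, 219 and 175 FPKM in the order of libraries above.

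TNF against PBS was a contrast that the choice of members had not used, and no member passed its test. CLDN4 had the largest mean TNF difference, 0.26 ± 0.39 (SD, n = 3 transfections) on the log2(FPKM + 1) scale: it was 1.44 times its PBS value in NC and 1.37 times in siEZH1, but 0.880 times in siUXT. TJP1 followed with 0.22 ± 0.26 and the CLDN12 locus with 0.20 ± 0.38. OCLN was at 0.17 ± 0.25, TJP3 at 0.08 ± 0.29, CLDN7 at 0.05 ± 0.37, the F11R locus at 0.01 ± 0.13 and CLDN3 at -0.07 ± 0.42. For every one of the 8 the SD between transfections was larger than the mean difference.

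Limma's additive model of transfection and treatment, with a threshold of 0.05 on the Benjamini-Hochberg adjusted p, called 0 of 8 members, and 0 had an unadjusted p under 0.05. Over all loci 0.405% were called higher and 0.00844% lower, and 3.96% had an unadjusted p under 0.05. The adjusted p was 0.999 for CLDN4 in limma, and over the alternatives it ranged from 0.0145 to 1. The members had a median TNF difference of 0.18 with NC, 0.19 with siEZH1 and -0.18 with siUXT, against -0.02, 0.01 and -0.05 over all loci. In NC 8 of 8 were above their PBS value by any amount (47.2% of all loci), in siEZH1 7 of 8 (51.2%) and in siUXT 2 of 8, OCLN and TJP1 (45.8%). Those 2 were above PBS in all 3 transfections, as were 9.08% of all loci. CLDN3, CLDN4, CLDN7, TJP3 and the CLDN12 locus were higher under TNF in NC and siEZH1 and lower in siUXT, an order that 24.6% of all loci showed.

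For TNF, CLDN4 was the 1 member whose call depended on the libraries used. Without either siUXT library or without both, limma gave a TNF difference of 0.49 with a Benjamini-Hochberg adjusted p of 0.0145 to 0.0148, and called 2.47%, 2.48% and 2.43% of all loci higher without siUXT PBS, siUXT TNF and both. With 1 residual degree of freedom, a locus's own spread in those fits was how far the NC pair and the siEZH1 pair differed. Limma combined that spread with a prior from all tested loci, of 5.14 to 5.18 degrees of freedom. CLDN4 had been chosen with its siEZH1 differences under both treatments in view. Their closeness is its own spread and enters the error, so this call adds no support.

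**Figure D4:**
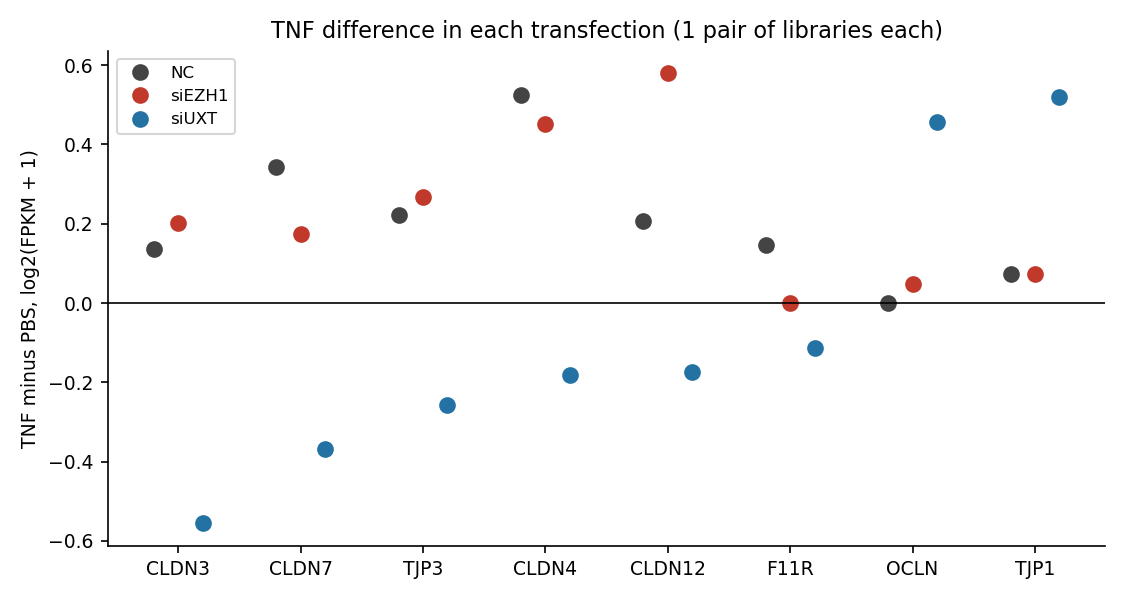
Difference of log2(FPKM + 1) between TNF and PBS for the 8 tested members in NC, siEZH1 and siUXT, 1 pair of libraries each and hence no error bars. The siUXT points of CLDN3, CLDN7, TJP3, CLDN4, CLDN12 and F11R lie below 0, and those of OCLN (0.46) and TJP1 (0.52) above it.

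In siUXT the members fell into unlike patterns under PBS and under TNF, and none passed the test. Under TNF, CLDN3 was at 6.70 FPKM against 11.9 in NC and CLDN4 at 96.4 against 164, log2 differences of -0.75 and -0.76, while under PBS both were at 0.96 of NC with differences of -0.05 and -0.06. The siUXT values of these genes lay between the siEZH1 values and the higher NC value. OCLN and TJP1 were the reverse: OCLN had -0.66 under PBS and -0.20 under TNF, and TJP1 -0.38 and 0.06. CLDN7 went from 0.30 under PBS to -0.41 under TNF and TJP3 from 0.32 to -0.16. The CLDN12 locus had -0.12 and -0.50, and the F11R locus 0.18 and -0.08.

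Limma called 0 of 8 members for siUXT (0.0253% of all loci higher, 0.0169% lower), and 0 had an unadjusted p under 0.05 (3.65% of all loci). The mean differences of OCLN, CLDN4 and CLDN3 were -0.43, -0.41 and -0.40, each with a Benjamini-Hochberg adjusted p of 0.908 in limma. Lower than NC under TNF by any amount were 7 of 8 members (47.8% of all loci), all but TJP1. At least 1.5-fold lower than NC were OCLN alone under PBS (16.4% of all loci) and CLDN3 and CLDN4 under TNF (3.06%), and 0 members were at least 1.5-fold higher under either treatment (4.11% and 3.12%). Without siUXT PBS, limma called CLDN4 lower (-0.74, Benjamini-Hochberg adjusted p = 0.0396, with 0.65% of all loci called lower and 0.439% higher). Without siUXT TNF it called OCLN lower (-0.64, Benjamini-Hochberg adjusted p = 0.0274, with 18.4% called lower and 12% higher). Each of these fits has 1 siUXT library, assumed to vary like the other groups. For both genes the closeness of the siEZH1 differences under both treatments again enters the error, beside the prior. Neither the CLDN4 call nor the OCLN call therefore adds support. The fit that called OCLN also rests on siUXT PBS, the library that stood apart. Both comparisons use the NC libraries that siEZH1 was compared with.

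**Figure D5:**
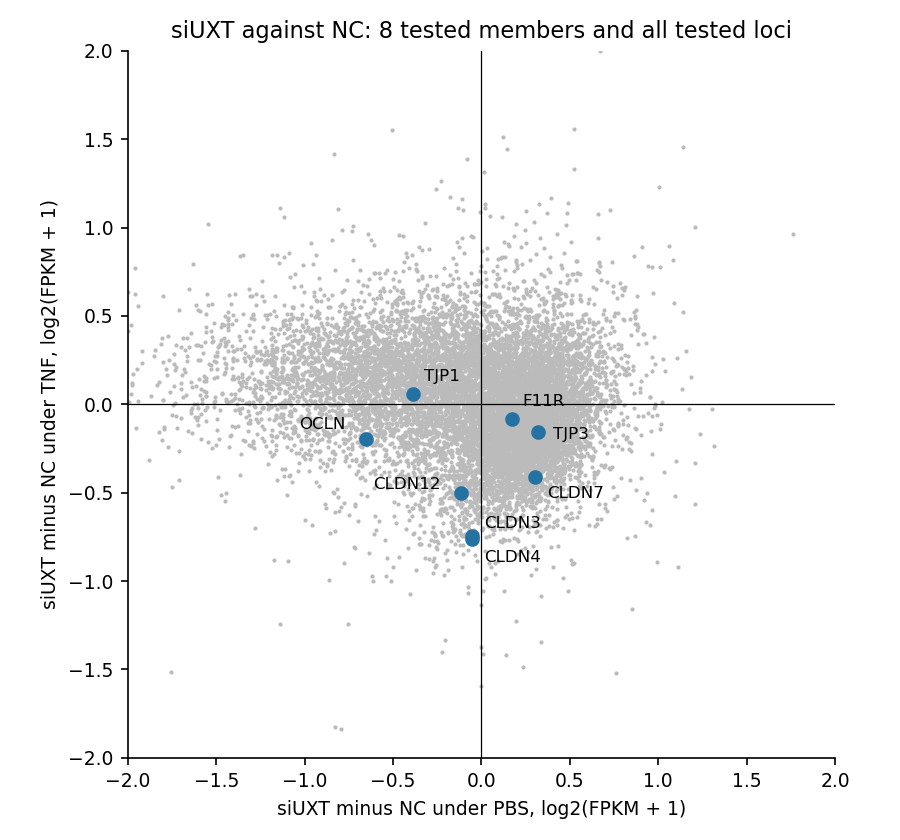
Difference of log2(FPKM + 1) between siUXT and NC under PBS (x axis) and under TNF (y axis) for the 8 tested members (blue) and all 11845 tested loci (grey); 99 loci lie outside the axes. CLDN3 (-0.05, -0.75) and CLDN4 (-0.06, -0.76) lie almost on each other, and OCLN (-0.66, -0.20) is furthest left.

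Most other claudin genes were silent or nearly so. Of 20 listed, 7 were at 0 in all libraries, 9 had a mean under 1 FPKM with a highest value of 0.603, and 4 were tested: CLDN2, CLDN15, CLDN23 and the claudin domain gene CLDND1. CLDN2, a cation pore former of leaky epithelia, was at 2.83 FPKM in NC PBS, 1.91 in NC TNF, 4.38 in siEZH1 PBS, 2.42 in siEZH1 TNF, 5.39 in siUXT PBS and 4.08 in siUXT TNF. In siEZH1 its log2 differences were 0.49 and 0.23, and 40.7% of all tested loci were higher under both treatments. The siEZH1 and NC values of CLDN2 overlapped, with siEZH1 TNF below NC PBS. In siUXT it was above NC in both libraries, with 0.74 and 0.80, as were 22.8% of all loci. Under TNF it was lower in all 3 transfections, by a mean of -0.46 ± 0.17 (SD, n = 3 transfections) with an adjusted p of 0.999 in limma. CLDND1 had siEZH1 differences of 0.32 and 0.31, and CLDN15 of -0.07 and -0.41. Of these 4 loci 0 were at least 1.5-fold lower in siEZH1 under both treatments, and over all libraries 0 were called for TNF or siUXT.

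Of 26 tested loci of other tight junction membrane proteins, scaffolds and regulators, 0 were at least 1.5-fold lower or higher in siEZH1 under both treatments, and their median differences were -0.03 under PBS and -0.13 under TNF. CXADR, a virus receptor of the junction, had siEZH1 differences of 0.49 and 0.65. Of the 26, 12 were lower by any amount under both treatments (37.7% of all loci) and 8 were higher (40.7%). RAB13, a small GTPase that traffics junction proteins, had siUXT differences of 0.39 and 0.84. Over all libraries limma called 0 of 26 for siUXT. RAB13 was called higher only in the fits left with 1 siUXT library, whose unlike shares over all loci are given above with the members. Limma called 0 of 26 for TNF. CGN, the gene of the cytoplasmic plaque protein cingulin, had the largest mean TNF difference, 0.60 ± 0.21 (SD, n = 3 transfections), with an adjusted p of 0.591 in limma, and under PBS and TNF NC had 6.77 and 12.1 FPKM, siEZH1 6.49 and 11.1, and siUXT 8.80 and 11.5. TJAP1, named after its value was seen, had a TNF difference of 0.36 over all libraries, with an adjusted p of 0.999 in limma. Without either siUXT library or both, the differences were 0.72 for CGN and 0.56 for TJAP1, the same in each fit. Without both, limma called CGN (Benjamini-Hochberg adjusted p = 0.0219) and TJAP1 (0.029), with 2.43% of all loci called higher. That fit has the 1 residual degree of freedom described for CLDN4.

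Of 16 tested polarity genes, whose complexes place the junction, 0 were at least 1.5-fold apart in siEZH1 under both treatments, and the medians were -0.16 and -0.14. SCRIB had siEZH1 differences of -0.71 and -0.48 and PARD6A of -0.58 and -0.53. PARD6B, another adaptor of the aPKC complex, had a TNF difference of 0.82 ± 0.21 (SD, n = 3 transfections; limma, Benjamini-Hochberg adjusted p = 0.259, and 0.0487, 0.0545 and 0.0507 without siUXT PBS, siUXT TNF and both). LIN7C had siUXT differences of -1.05 and -0.27, with 3.82 FPKM in siUXT PBS and 8.98 in NC PBS.

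Adherens junction and desmosome genes had medians near 0 or above in siEZH1: 0.05 and 0.02 over 13 adherens loci and 0.19 and 0.20 over 10 desmosome loci, with 0 in either list at least 1.5-fold apart under both treatments. The nectin genes went opposite ways, PVRL2 with -0.54 and -0.56 and PVRL3 with 0.48 and 0.71, and the desmosomal plaque genes PKP3 and EVPL had -0.66 and -0.40, and -0.51 and -0.47. CDH3, a classical cadherin, had siUXT differences of 0.69 and 0.18, PERP of -0.89 and -0.56, VCL a TNF difference of 0.17 and PPL of -0.35. Limma called 0 loci of these lists for TNF or siUXT over all libraries, and called PVRL2 for TNF without either siUXT library or both. PVRL2 was picked for its siEZH1 differences, and their closeness enters the error of those fits, so that call adds no support either.

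Among 18 tested transcription factors known to act on epithelial junction genes, limma called 1 higher for TNF (0.405% of all loci) and 0 lower (0.00844%). ELF3, an epithelial ETS factor, rose by 1.74 ± 0.35 (SD, n = 3 transfections; limma, Benjamini-Hochberg adjusted p = 0.0143, but 0.0759 without a filter on low values). Under PBS and TNF, ELF3 had 24.2 and 89.0 FPKM with NC, 15.8 and 67.2 with siEZH1 and 24.3 and 63.6 with siUXT. SNAI1, the Snail repressor of epithelial genes, was the 1 factor at least 1.5-fold lower in siEZH1 under both treatments (2.38% of all loci). It was at 4.76 FPKM against 7.74 in NC under PBS and at 4.04 against 7.44 under TNF. Its log2 differences were -0.60 and -0.74. OVOL1 had siEZH1 differences of -0.54 and -0.38, and HNF4A siUXT differences of 0.41 and 0.57. The median siEZH1 difference of the 18 factors was 0.03 under PBS and 0.12 under TNF.

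Apart from RAB13, called in either fit left with 1 siUXT library, calls for siUXT in these lists depended on the siUXT TNF library. Without it, when limma called 12% of all loci higher and 18.4% lower, CLDN2 and CLDN15 were called higher and CLDND1 lower among the other claudins. Among the other tight junction loci 2 were called higher and 4 lower, and among the polarity genes 2 and 4, LIN7C among the latter. Among the adherens loci 6 were called higher, with CDH3, and 2 lower, and among the desmosome loci EVPL and PPL higher and DSC2 and PERP lower. Of the transcription factors 1 was called higher (TCF3) and 2 lower (EHF and SP3).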

How the data were processed

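Poly(A) RNA libraries of HCT116 cells were compared, 1 for each of 6 conditions named in the sample titles. The authors deposited FPKM values per gene symbol, and per the submitters' processing notes FastQC, cutadapt, TopHat2, Bowtie, SICER and the build hg19 were used, without roles or versions; for the FPKM program, annotation and strand setting nothing was given in the sources used here. The read depth is unknown; relative depth came from the steps of values under 0.4 FPKM (tolerance 2%).

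Symbols that shared 1 value in every library were counted as 1 locus. Of 17642 loci above 0, 11845 with a mean of at least 1 FPKM were tested. Values were analysed as log2(FPKM + 1), which understates the change of low genes. Limma 3.58.1 in R 4.3.3 (lmFit, eBayes with trend) fitted transfection and treatment additively over all 6 libraries, leaving 2 residual degrees of freedom and taking unequal responses as error; p-values were Benjamini-Hochberg adjusted over all tested loci, with a threshold of 0.05. They measure only the spread between these libraries. The script was tested on simulated data. Single pairs of libraries have no test. The siEZH1 contrast chose the members and was not tested.

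Members and lists were chosen with earlier results of these data known. Besides members, up to 4 loci per list were named: those with the largest mean difference of one sign in every pair for TNF, siEZH1 and siUXT, then the next for siEZH1; for CLDN3 and CLDN4 the 5 nearest profiles. Of these loci 1 is not reported here. Alternatives were a pseudocount of 0.1, no filter, a minimum of 5 FPKM, size factors (1.00 to 1.05), eBayes without trend, a lower and a higher fold limit, and leaving out libraries. RefSeq tables (GRCh38.p14) gave gene types, neighbours and promoters. Python 3.11.15 with numpy 2.4.6, pandas 2.3.3 and matplotlib 3.10.9 did the rest.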

Additional observations from a re-analysis of the deposited data

Results flagged for a closer look

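Of 8 members, 5 had a TNF difference in siUXT of opposite sign to that in both NC and siEZH1, each at least 0.1 in size on the log2(FPKM + 1) scale, as did 24.7% of all tested loci. All 5 were higher under TNF in NC and siEZH1 and lower in siUXT, as were 11.9% of all tested loci at that size. The TNF difference in siUXT minus that in NC was -0.69 for CLDN3, -0.71 for CLDN4, -0.71 for CLDN7, -0.38 for the CLDN12 locus and -0.48 for TJP3. With 1 library per condition this difference between transfections was not tested. Depth relative to NC PBS was 0.719 in NC TNF and 0.720 in siEZH1 TNF, but 0.949 and 0.957 in siUXT PBS and TNF. The siUXT PBS library also stood apart, as described above. The part of depth and of that library in these differences was not tested. Compared with NC, CLDN3, CLDN4 and the CLDN12 locus in siUXT were at -0.05, -0.06 and -0.12 under PBS and at -0.75, -0.76 and -0.50 under TNF. CLDN7 and TJP3 were at 0.30 and 0.32 under PBS and at -0.41 and -0.16 under TNF.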

How the results depend on the processing

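With 1 library per condition, calls depended on which libraries entered the fit. The count of members called for TNF was 0 in limma over all libraries, 0 to 1 when each library was left out in turn and 1 without both siUXT libraries; for siUXT it was 0, and 0 to 1 when each was left out. The number of members lower in siEZH1 under both treatments was 2 at 1.5-fold (2.38% of all loci), 4 at the lower fold limit tried (CLDN7 and TJP3 added; 11.3%) and 1 at 2-fold (CLDN3; 0.16%). Pseudocount, filter, size factors and eBayes without trend moved none of these counts; OCLN has no value at a minimum of 5 FPKM.

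Mean differences near 0 changed sign. For TNF, CLDN3 was at 0.17 without siUXT PBS, siUXT TNF or both (range when each library was left out -0.21 to 0.17); CLDN7 at -0.10 without either NC library and -0.013 without either or both siEZH1 libraries (range -0.10 to 0.26); TJP3 at -0.017 without either or both siEZH1 libraries (range -0.017 to 0.25); and F11R at -0.057 without either NC library (range -0.057 to 0.072). For siUXT, CLDN7 was at 0.17 without NC TNF and 0.26 without siUXT TNF (range -0.37 to 0.26) and TJP1 at 0.061 without siUXT PBS (range -0.38 to 0.061). TJP3 was at -0.027 without NC PBS and -0.17 without siUXT PBS (range -0.17 to 0.33), and F11R at -0.054 and -0.046 (range -0.054 to 0.15). For siEZH1, leaving out 1 library leaves 1 pair, so the values are the differences under PBS and TNF already given and are no further check. They were -1.36 and -1.29 for CLDN3, -0.87 and -0.94 for CLDN4, and -0.33 and 0.04 for the CLDN12 locus. The limma fit holds transfection as a term and so compares TNF with PBS within each transfection. Its 3 pairs are different transfections with 1 library per condition, not replicates, and the labels give no replicate numbers for any other pairing.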
